A study of Homo sapiens with 5 samples.

Results

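The clustered core histone genes were taken as the protein-coding human genes whose current symbol begins with H2AC, H2BC, H3C or H4C followed by a number and whose estimated counts summed to at least 10 over all libraries. Of 64 such symbols in GENCODE 44, 60 had a row in the deposited gene-level table, and 54 of these reached the minimum, out of 65217 gene identifiers in all. They comprise 12 H2A, 18 H2B, 11 H3 and 13 H4 genes. Of the 6 that fell short, H2AC1, H2BC1, H2AC25 and H4C12 were listed at 0 in every library, H4C7 had 1 count and H2AC15 had 6 counts, while H4C13, the member closest to the minimum, had 18. The 4 symbols with no row under their current identifier, H2AC18, H2AC19, H3C2 and H3C3, are no members, and their values are given only from the transcript tables.

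The RNA came from REH cells, an established human line of B cell precursor acute lymphoblastic leukaemia with t(12;21) and its ETV6-RUNX1 (TEL-AML1) fusion gene, grown as xenografts. The brain group holds cells recovered from the leptomeninges, the membranes that cover the brain (3 libraries), and the spleen group holds cells recovered from the spleen (2 libraries). All hosts were NSG mice (NOD.Cg-PrkdcscidIl2rgtm1Wjl/SzJ, immunodeficient animals that accept human cells) aged 6 to 10 weeks, the labels name no drug treatment of the leukaemia, and each library pooled RNA of 5 mice. Replicate numbers 1 to 3 mark independent occasions, and occasion 3 has no spleen library because it failed quality control, per the labels. The line is a single established culture, so the spread between libraries covers pools and occasions and neither patients nor single mice.

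Core histones H2A, H2B, H3 and H4 form the protein spool around which nuclear DNA is wound. Their clustered genes are replication-dependent: transcription peaks in S phase through NPAT, and the messenger RNA normally ends in a conserved stem-loop in place of a poly(A) tail. The stem-loop is bound by SLBP, and the U7 snRNP guides the cut that follows it. Some clustered genes also give polyadenylated messages, which have been described in differentiating and non-dividing cells. The libraries were made with the TruSeq Stranded mRNA kit, which captures RNA through its poly(A) tail, so the counts below describe mainly polyadenylated message and are no measure of the stem-loop-ended pool.

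The stem-loop is the sequence that sets these genes apart, and the forms found in the members are shown here with the stem in capitals and the loop in lower case, as DNA letters read from GRCh38 with GENCODE 44 annotation. The search took 16 bases that start with GG, with a 6-base stem, a perfect match between its arms and a 4-base loop that starts with TT, within 100 bases after the stop codon. It was found in 49 of the 54 members and in 10 of 19120 other protein-coding genes (0.0523%). Those others were the linker histone genes H1-1 to H1-6, the variant histone genes H2AX, H3-4 and H3-7, and the splicing factor gene CDC40.
Stem-loop of 29 members: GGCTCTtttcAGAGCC
Stem-loop of 9 members: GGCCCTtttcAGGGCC
Stem-loop of 7 members: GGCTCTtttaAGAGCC
Stem-loop of 3 members: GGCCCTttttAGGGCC
Stem-loop of 1 member: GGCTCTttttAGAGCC

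Every member named as changed below carries a stem-loop. H2BC21, H2AC6 and H2BC9 have the first form, H4C11 has the form of 9 members and H4C15 has the form of 3 members. The stem-loop began 57 bases after the stop codon in H2BC21, 44 in H2AC6, 24 in H2BC9, 23 in H4C11 and 36 in H4C15. A match is a description of the genome and does not say which end the sequenced molecules had.

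The transcripts that the authors' quantification could see differed widely in length. For 27 members the longest transcript in the deposited tables equalled the coding length, 9 members had a shorter extension, and 18 members had a transcript at least 200 bases longer than the coding sequence, called long here. H2BC21 was represented by a transcript of 2194 bases over a coding length of 381, and H2AC6 by transcripts of up to 1668 bases over 393. H2BC9, with 381 bases, had no base beyond its coding sequence, and H4C11 had 373 bases over a coding length of 312. Reads from beyond the end of a transcript in the index could not be assigned to it, so members of different classes were sampled over different parts of their message.

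In cells recovered from the brain, 3 core histone genes were higher than in cells from the spleen and 2 were lower. H2BC21, which encodes an H2B, was 2.86-fold higher, H2AC6, which encodes an H2A, was 2.38-fold higher, and H4C15, which encodes the H4 protein, was 1.8-fold higher. H4C11 and H2BC9 were lower, with levels in spleen cells 2.22-fold and 1.84-fold those in brain cells. The test was the quasi-likelihood F test of edgeR on counts, with p-values adjusted by the Benjamini-Hochberg method over all 20419 genes tested and a threshold of 0.05. The filter on low counts kept 39 of the 54 members, and the other 15 had mean counts-per-million (CPM) values of at most 0.221 over all libraries, so no statement on change is made for them. Members that passed the filter did so partly through the group in which they were high.

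Against the background of all tested genes, 6.01% were called higher in brain, 3.50% lower and 9.51% either way. The members' shares, 7.69% higher and 12.8% either way, stood close to it, so the family as a whole is not set apart by its number of calls. At an unadjusted p under 0.05, 5 tested members were higher and 5 lower. The median log2 fold change over the 39 members was -0.20, against 0.01 over all genes tested. Every brain library lay above both spleen libraries in 6 members, where 23.3% of all genes did so, and below both in 11, where 19.5% did. In bulk RNA, fewer cells that express a gene and less message per cell cannot be told apart.

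H2BC21 was the member with the most counts. It had 1123, 1326 and 840 counts in brain libraries 1 to 3, against 423 and 387 in the spleen libraries. The lowest brain library lay well above the highest spleen library. Scaled to CPM with TMM (trimmed mean of M-values) factors, the level was 24.7 ± 5.36 in brain and 8.66 ± 1.39 in spleen (SD, n = 3 and 2). The log2 fold change was 1.52 (SE 0.20), with an edgeR adjusted p of 0.00323. It stayed past the threshold in all 14 alternative analyses, with log2 fold changes from 0.91 to 1.69. Of the 31-base words of its annotated transcripts, 87.8% occurred in no other human gene searched. Its estimates alone made up 32.8%, 35.01% and 26.5% of all member counts in the brain libraries, against 14.4% in each spleen library.

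H2AC6 was the second member called higher with mostly distinct sequence, 98.2% of its 31-base words being its own. It had 207, 212 and 227 counts in brain, against 113 and 77 in spleen, so the brain libraries lay close together and above both spleen libraries. Its level was 4.88 ± 0.53 CPM in brain and 2.05 ± 0.74 CPM in spleen (SD, n = 3 and 2). The log2 fold change was 1.25 (SE 0.26), with an edgeR adjusted p of 0.0210. It did not pass when brain replicate 1 was left out (edgeR adjusted p = 0.0845), nor without brain replicate 2 (0.0504) or spleen replicate 2 (0.0692), with the direction kept. The gene was represented by 3 transcripts. The estimates placed 52.1% of its counts on the 1668-base transcript in brain replicate 1 and under 1% on it in every other library, so the split among them was not stable while the gene total was.

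H4C15 and its neighbour H4C14 have to be read together, since they are near-identical copies on opposite strands of the chromosome 1 cluster. None of the 31-base words of H4C15 and 1.44% of those of H4C14 were unique to the gene. H4C15 had 311, 330 and 483 counts in brain, against 210 and 231 in spleen (log2 fold change 0.85, SE 0.22, edgeR adjusted p = 0.0440). H4C14 had 277, 328 and 161 counts in brain, against 154 and 132 in spleen (log2 fold change 0.91, edgeR adjusted p = 0.0999). Brain replicate 3 held the highest value of H4C15 and the lowest brain value of H4C14. With the occasion as a block the calls changed places, at an edgeR adjusted p of 0.0548 for H4C15 and 0.0145 for H4C14. Occasion 3 has no spleen library, so brain replicate 3 does not bear on the site difference in that fit. Of the 5 libraries left out in turn, H4C15 passed only without brain replicate 2 (0.0468) and H4C14 only without brain replicate 3 (0.0245).

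The sum of the pair was steadier than either gene. Together H4C14 and H4C15 had 588, 658 and 644 counts in brain, against 364 and 363 in spleen, and the share given to H4C14 was 47.1%, 49.8% and 25.0% in brain and 42.3% and 36.2% in spleen. The summed level was 14.2 ± 0.89 CPM in brain and 7.75 ± 0.77 CPM in spleen (SD, n = 3 and 2). Its log2 fold change was 0.88 (SE 0.14), with an edgeR adjusted p of 0.00760. This merged test was added after the data were seen. H3C14 and H3C15, a further near-identical pair, which encode H3, were given the same estimate in every library, and their sum was not past the threshold (log2 fold change 0.05, edgeR adjusted p = 0.942).

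The H2A genes H2AC18 and H2AC19 lie in the same chromosome 1 cluster but had no row in the gene table. Summed from the transcript tables they had 1081, 1114 and 790 counts in brain, against 647 and 615 in spleen. The share given to H2AC18 ranged from 31.2% to 42.8% in brain, against 26.3% and 63.6% in spleen, so only the sum is read. It was 22.6 ± 5.07 CPM in brain and 13.5 ± 1.797 CPM in spleen (SD, n = 3 and 2). The log2 fold change was 0.74 (SE 0.19), with an edgeR adjusted p of 0.0427 in the same merged test. Per length, the transcripts-per-million (TPM) values summed to 80.3, 72.7 and 54.9 TPM in brain and 42.6 and 39.4 TPM in spleen.

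**Figure D1:**
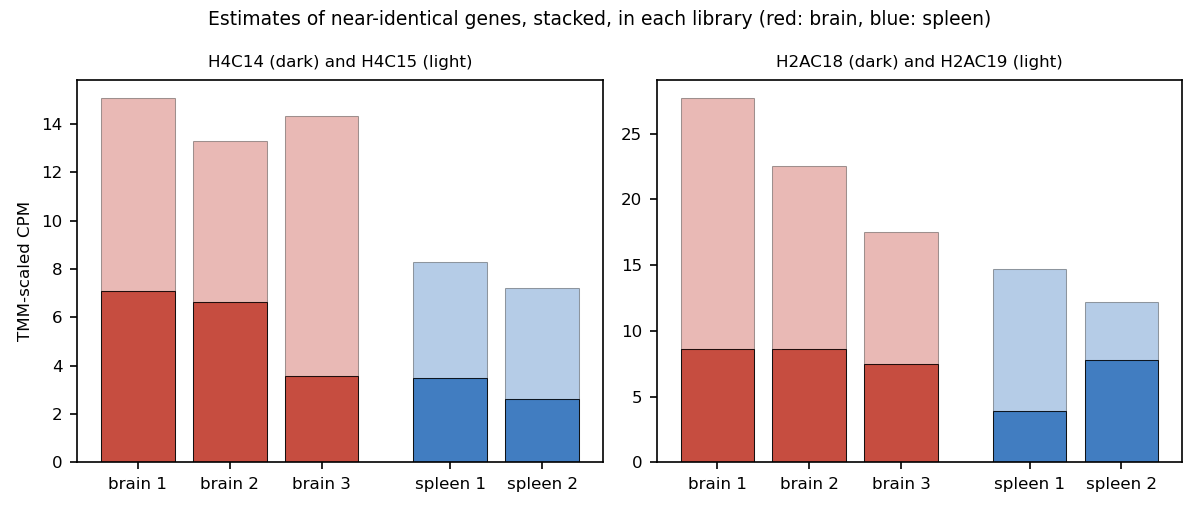
Stacked bars of TMM-scaled CPM in each library for H4C14 with H4C15 (left) and H2AC18 with H2AC19 (right), brain libraries in red and spleen libraries in blue, the dark part being the gene named first. The split within a pair shifts between libraries, while all 3 brain totals stand above both spleen totals (14.2 against 7.75 CPM on average for the H4 pair, 22.6 against 13.5 CPM for the H2A pair).

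H4C11 and H2BC9 were the members called lower in brain. H4C11 encodes the same H4 protein and had 49, 54 and 49 counts in brain, against 147 and 88 in spleen. The brain libraries lay close together below both spleen libraries, which differed from each other. Its log2 fold change was -1.15 (SE 0.30), with an edgeR adjusted p of 0.0465. Only 7.52% of its 31-base words were its own, so its level depends on how shared reads were divided. The H4 gene H4C12, with a similarly small share of words of its own, was listed without counts in every library. Whether reads of H4C12 were counted under H4C11 was not tested. H2BC9 encodes an H2B and had 94, 129 and 125 counts in brain, against 258 and 187 in spleen (log2 fold change -0.88, SE 0.23, edgeR adjusted p = 0.0492). Of its 31-base words, 82.9% were its own.

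Both of these calls stood near the threshold. With the occasion as a block, the adjusted p was 0.0620 for H4C11 and 0.0653 for H2BC9. Each passed in 7 of 14 alternatives, and each kept its direction in all of them. Leaving out spleen replicate 1, the library with the higher value of both, moved the log2 fold change to -0.62 for H4C11 (edgeR adjusted p = 0.293) and to -0.52 for H2BC9 (0.288). Without spleen replicate 2 they were -1.55 (0.0118) and -1.18 (0.0194). Without brain replicate 1, 2 or 3 neither gene passed.

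The other named members did not pass the threshold. H2BC18, an H2B gene of the chromosome 1 cluster, had 51, 50 and 31 counts in brain, against 8 and 25 in spleen, with a log2 fold change of 1.53 and an adjusted p of 0.0751. Words found in no other gene made up 39.7% of the 31-base words of H2BC18. Its groups did not overlap, and the 2 spleen libraries stood apart from each other. Without spleen replicate 2 it passed (log2 fold change 2.43, edgeR adjusted p = 0.0325). H2AC16, an H2A gene, had 5, 6 and 4 counts in brain, against 21 and 15 in spleen, with a log2 fold change of -1.75 and an adjusted p of 0.0593. H3C8, an H3 gene, had 53, 49 and 45 counts in brain, against 88 and 98 in spleen, with a log2 fold change of -0.83 and an adjusted p of 0.0727. In these 2 genes all brain counts were below both spleen counts.

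H2BC12 and H2BC5, H2B genes, stood on opposite sides of 0. H2BC12 had 146, 145 and 157 counts in brain, against 185 and 229 in spleen (log2 fold change -0.37, edgeR adjusted p = 0.272). H2BC5 had 103, 107 and 138 counts in brain, against 83 and 98 in spleen (log2 fold change 0.45, edgeR adjusted p = 0.272). On the CPM scale neither pair of groups overlapped.

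The H4 gene H4C9 had 121, 161 and 157 counts in brain, against 188 and 178 in spleen (log2 fold change -0.25). The H2A gene H2AC11 had 101, 101 and 104 counts in brain, against 152 and 132 in spleen (log2 fold change -0.39). In both genes every brain library was below the spleen libraries. For the H3 gene H3C10, with 46, 71 and 68 counts in brain against 65 and 89 in spleen, the groups overlapped (log2 fold change -0.24). H2BC13 and H2AC7 are low-count members, with 13, 11 and 4 against 18 and 19 counts (log2 fold change -0.88) and 9, 12 and 9 against 9 and 2 counts (log2 fold change 0.90), brain first. The edgeR adjusted p of these 5 genes ranged upwards from 0.320. The 23 tested members not named had log2 fold changes between -0.80 and 0.58 and adjusted p-values of at least 0.171.

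**Figure D2:**
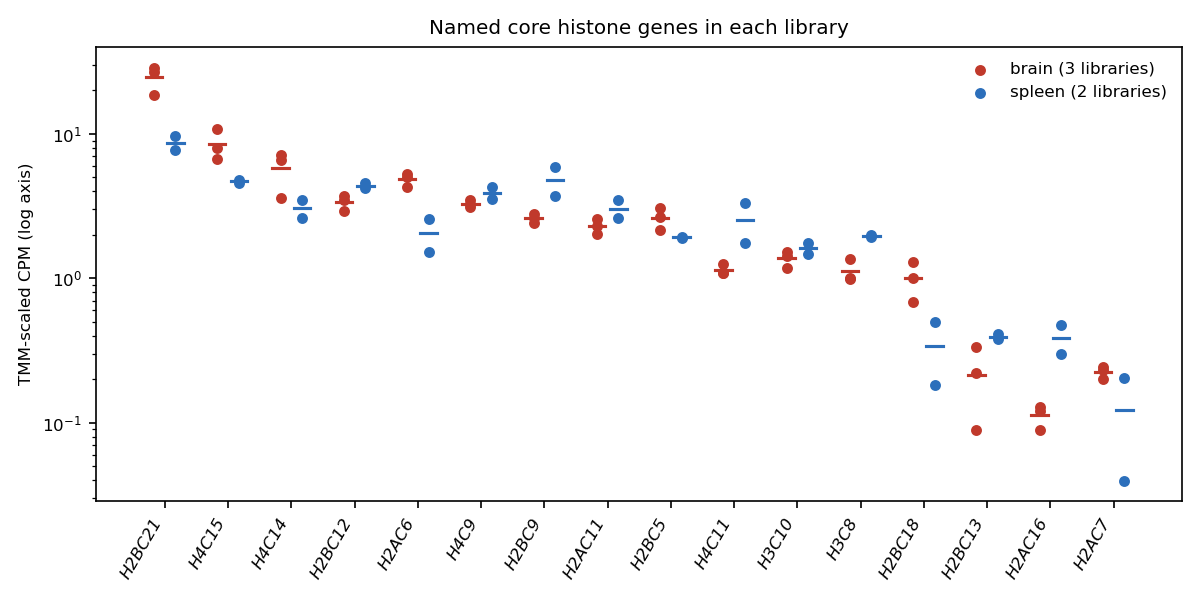
TMM-scaled CPM on a log axis for the 16 members chosen by call, level or size of change, ordered by mean level, with brain libraries as red points left of spleen libraries as blue points and a line at each mean. H2BC21 stands highest, at 24.7 CPM in brain and 8.66 CPM in spleen on average, and H4C11 and H2BC9 have brain points below spleen points.

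By histone type, calls were spread thinly. Of 10 tested H2A genes 1 was higher and none lower, of 13 H2B genes 1 was higher and 1 lower, of 9 H3 genes none passed, and of 7 H4 genes 1 was higher and 1 lower. The shares over all 20419 genes tested were 6.01% higher and 3.50% lower. The median log2 fold change was -0.21 for H2A, -0.12 for H2B, -0.24 for H3 and 0.08 for H4. The H2B genes summed to 45.2, 40.7 and 34.4 CPM in brain, against 28.8 and 24.9 CPM in spleen, and H2BC21 is among them. The H4 genes summed to 22.6, 19.9 and 20.3 CPM in brain, against 18.5 and 13.97 CPM in spleen. The H3 genes summed to 7.64, 5.94 and 5.56 CPM in brain, against 8.07 and 7.08 CPM in spleen, and those of H2A to 12.3, 9.98 and 10.1 CPM in brain, against 11.4 and 7.42 CPM in spleen. On this scale the groups stood apart for H2B and H4 and overlapped for H3 and H2A. The H2A sum leaves out H2AC18 and H2AC19, which together had 27.7, 22.5 and 17.6 CPM in brain, against 14.7 and 12.2 CPM in spleen. In TPM, where short transcripts weigh more, the H2B genes summed to 73.4, 70.1 and 70.1 TPM in brain, against 81.9 and 76.6 TPM in spleen, the opposite direction. The H4 genes summed to 40.9, 39.97 and 30.97 TPM in brain, against 46.2 and 29.4 TPM in spleen, and overlapped. The H3 genes H3C2 and H3C3, from the transcript tables, had 22, 9 and 3 counts in brain, against 16 and 15 in spleen, and 12, 10 and 14 counts in brain, against 19 and 22 in spleen.

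Levels of different genes can be set side by side only per length. On the TPM scale the order of the members differed between the sites. H2AC18 and H2AC19, which are no members, are left out of it. Their sum, 80.3, 72.7 and 54.9 TPM in brain and 42.6 and 39.4 TPM in spleen, stood above every member in each library. In brain each of them was also listed above H2BC12 in every library. Among the members, the highest mean in brain was that of H2BC12, followed by H2BC21, H2BC9, H4C14, H4C15 and H4C11. In spleen it was that of H2BC9, followed by H2BC12, H4C11, H4C14, H2AC20 and H2BC21. H2BC12 had 18.3 ± 1.38 TPM in brain and 23.9 ± 2.21 TPM in spleen (SD, n = 3 and 2). Only 29.0% of the 31-base words of H2BC12 were its own, so its level depends on how shared reads were divided. H2BC9 had 14.1 ± 1.498 TPM in brain and 25.9 ± 7.31 TPM in spleen. H2BC21 had 15.2 ± 2.99 TPM in brain and 5.18 ± 0.32 TPM in spleen. In brain H2BC9 and H2BC21 differed by less than their spread, as did H2BC9 and H2BC12 in spleen, while in spleen the H2BC9 level lay far above that of H2BC21. The TPM of genes indexed by their coding sequence alone divides by a short length, which raises them in this order.

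By position, the tested members of the chromosome 1 cluster had mostly positive fold changes and those of the second part of the chromosome 6 cluster mostly negative ones. Coordinates are those of GRCh38 with GENCODE 44. The chromosome 1 cluster (chr1:149782689-149887965) holds 9 members, of which 7 were tested, 2 were higher and none lower, with a median log2 fold change of 0.85 and 6 positive values. Over all genes tested, 6.01% were higher and 3.50% lower, and in this cluster 28.6% were higher. H4C14 with H4C15 and H3C14 with H3C15 are near-identical pairs, so each pair enters as 2 values that are not separate measurements. The second part of the chromosome 6 cluster (chr6:27125897-27893891) holds 18 members, of which 16 were tested, none was higher and 1, H4C11, was lower, with a median of -0.39 and 15 negative values. The first part of that cluster (chr6:26020451-26285638) holds 24 members, of which 14 were tested, with 1 higher (H2AC6), 1 lower (H2BC9) and a median of -0.04. H4C16 on chromosome 12 and H2BC12L on chromosome 21 stand alone and did not pass, and H2BC26 on chromosome 1, near position 228458103, was not tested.

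Summed levels were compared by cluster as well. The 9 genes of the chromosome 1 cluster summed to 49.1, 44.2 and 36.2 CPM in brain, against 21.8 and 18.1 CPM in spleen. The 18 genes of the second chromosome 6 part summed to 17.5, 15.1 and 16.1 CPM in brain, against 23.8 and 19.6 CPM in spleen. These 2 sums lay apart in opposite directions, while the 24 genes of the first part overlapped, with 18.6, 15.3 and 16.1 CPM in brain and 19.2 and 13.8 CPM in spleen. Sums carry no test here, and H2BC21 weighs heavily in that of chromosome 1. The chromosome 1 sum leaves out H2AC18 and H2AC19, which lie in that cluster but are no members.

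**Figure D3:**
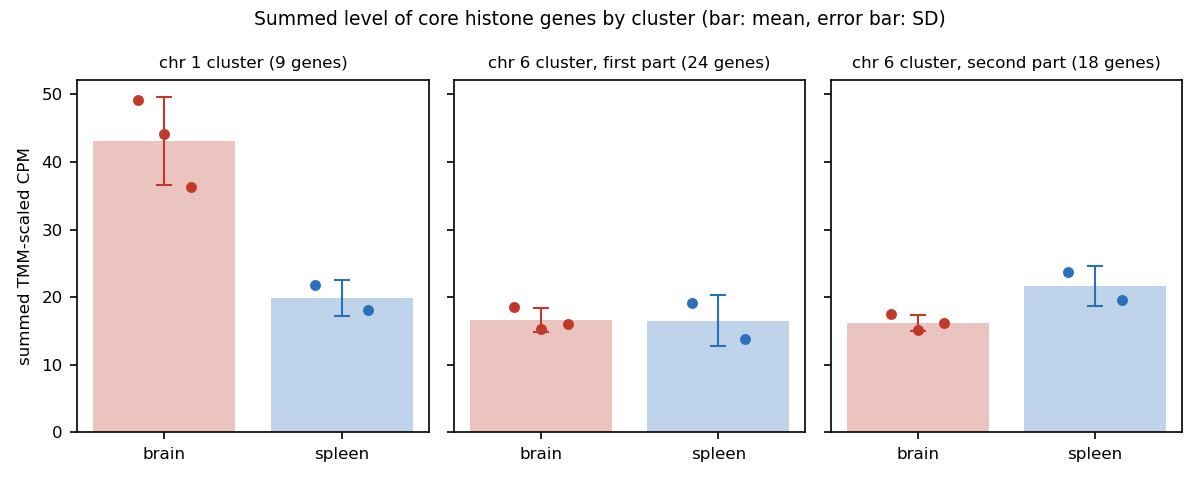
Summed TMM-scaled CPM of the members of each cluster, one panel per cluster on a shared axis from 0, with bars at the group mean, error bars of 1 SD and a point for each library. Brain stands above spleen in the chromosome 1 cluster (43.2 against 19.9 CPM), level with it in the first chromosome 6 part (16.7 against 16.5 CPM) and below it in the second (16.2 against 21.7 CPM).

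Members were also grouped by annotated transcript length, which overlaps with position in part. Of the 18 long members 17 were tested, and the 3 members called higher were all among them, with 0 lower and a median log2 fold change of 0.05. Called higher were thus 17.6% of the tested long members, against 6.01% of all genes tested, of which 3.50% were called lower. The classes also differed in level, with a median over their members of 1.43 CPM for long ones. It was 0.221 CPM for coding length alone and 0.286 CPM for a shorter extension, so calls were not equally easy to reach. Of the 16 tested members indexed by coding length alone, 0 were higher and 1, H2BC9, was lower, with a median of -0.31. Of the 6 tested members with a shorter extension, 0 were higher and 1, H4C11, was lower, with a median of -0.47. The long members summed to 69.1, 61.7 and 56.1 CPM in brain, against 41.3 and 35.2 CPM in spleen. Members indexed by coding length summed to 14.1, 11.7 and 10.9 CPM in brain, against 18.96 and 13.8 CPM in spleen. Among the long members alone, all 6 tested in the chromosome 1 cluster had positive log2 fold changes (0.05 to 1.53, median 0.88). These 6 include the near-identical pairs H4C14 with H4C15 and H3C14 with H3C15, whose values are not separate measurements. The 5 long members tested in the second part of the chromosome 6 cluster ran from -0.48 to 0.02, with 4 of 5 negative and a median of -0.25, and the 5 in the first part ran from -0.83 to 1.25. Neither the difference between length classes nor that between clusters was tested.

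**Figure D4:**
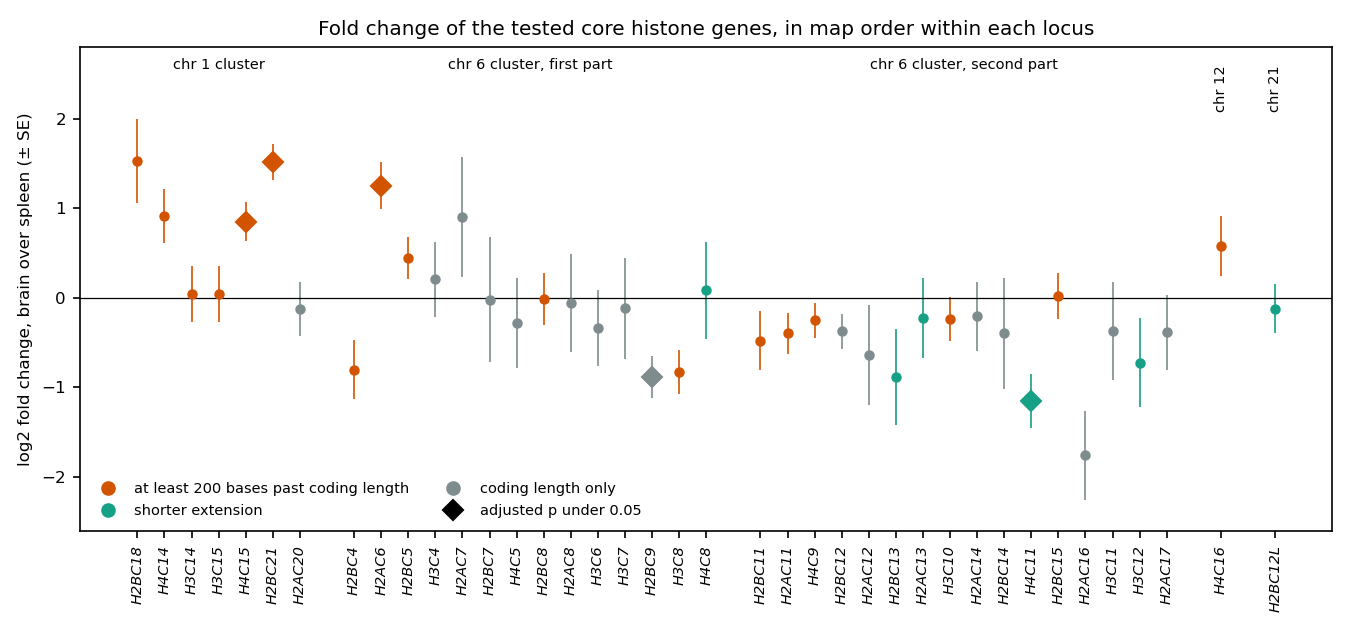
Log2 fold change of brain over spleen with its SE for the 39 tested members, in map order within each locus, coloured by how far the longest deposited transcript extends past the coding sequence, with diamonds for members past the threshold. Positive values gather in the chromosome 1 cluster (median 0.85) and negative ones in the second part of the chromosome 6 cluster (median -0.39).

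Over all 54 members, the summed level was 87.7, 76.5 and 70.3 CPM in brain, against 66.8 and 53.3 CPM in spleen, a ratio of means of 1.30. H2BC21 carried most of this. Without it the sums were 58.9, 49.7 and 51.7 CPM in brain and 57.1 and 45.6 CPM in spleen, and the ratio was 1.04. On the TPM scale, where short transcripts weigh more, the ratio was 0.93. The TPM sums overlapped, with 156, 147 and 131 TPM in brain, against 174 and 139 TPM in spleen. H2AC18 and H2AC19, which are no members, are left out of all these sums. Their own sum was higher in brain, at 80.3, 72.7 and 54.9 TPM, against 42.6 and 39.4 TPM in spleen. The TPM ratio therefore describes the members only, and their libraries show no separation between the sites. No change of core histone message as a whole can be read from these sums.

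Many H2A and H2B genes of the clusters start back to back and share a promoter. RefSeq promoter windows (GRCh38.p14, 250 bases before to 50 after the start) were matched to 48 members with 52 entries. The letters CCAAT occurred in 84.6% of these, against 34.6% of all 35116 promoters, TATAAA in 67.3%, against 11.5%, and the octamer ATTTGCAT in 48.1%, against 1.77%, each sought on either strand. The octamer, which OCT1 binds and which is long known from H2B promoters, was present in 10 of 11 H2A and 14 of 19 H2B windows, against 1 of 11 H3 and 0 of 11 H4 windows. The H3 window with the octamer is a second entry of H3C4 that coincides with the window of H2AC7, and the other H3C4 window has none. Windows shared by back-to-back genes count under both. H2BC12 and H2BC5 each enter with a second window nearly the same as the first. Both windows of H2BC12 hold the octamer, and neither of H2BC5 does. The windows of 4 changed members are shown with these motifs in capitals, reading in the direction of transcription. They are H2BC21 (chr1:149886633-149886932, minus strand), H2AC6 (chr6:26123922-26124221, plus strand), H2BC9 (chr6:26251364-26251663, plus strand) and H4C11 (chr6:27823842-27824141, plus strand).
H2BC21: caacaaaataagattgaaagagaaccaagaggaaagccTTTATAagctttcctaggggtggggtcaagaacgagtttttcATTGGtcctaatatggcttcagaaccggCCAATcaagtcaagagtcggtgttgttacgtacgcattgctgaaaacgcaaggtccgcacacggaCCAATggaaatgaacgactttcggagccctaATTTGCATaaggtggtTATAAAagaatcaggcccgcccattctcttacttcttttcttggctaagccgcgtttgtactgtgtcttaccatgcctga
H2AC6: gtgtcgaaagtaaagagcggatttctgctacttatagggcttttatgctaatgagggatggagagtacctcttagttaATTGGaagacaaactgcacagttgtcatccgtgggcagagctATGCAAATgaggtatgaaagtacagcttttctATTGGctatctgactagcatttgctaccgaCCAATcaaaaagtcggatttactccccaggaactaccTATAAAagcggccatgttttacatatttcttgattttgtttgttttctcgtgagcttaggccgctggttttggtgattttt
H2BC9: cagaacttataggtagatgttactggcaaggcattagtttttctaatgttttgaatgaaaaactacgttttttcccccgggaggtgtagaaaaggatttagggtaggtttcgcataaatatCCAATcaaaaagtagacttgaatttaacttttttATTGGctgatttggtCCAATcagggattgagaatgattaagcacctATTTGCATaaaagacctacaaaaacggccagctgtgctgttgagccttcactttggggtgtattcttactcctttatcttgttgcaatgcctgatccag
H4C11: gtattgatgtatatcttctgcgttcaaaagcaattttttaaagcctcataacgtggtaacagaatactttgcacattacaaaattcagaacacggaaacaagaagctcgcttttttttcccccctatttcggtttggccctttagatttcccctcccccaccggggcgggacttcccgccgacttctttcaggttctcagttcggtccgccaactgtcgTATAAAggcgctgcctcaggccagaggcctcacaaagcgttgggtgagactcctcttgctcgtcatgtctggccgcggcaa

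The windows of H2BC21 and H2AC6, which were higher in brain, each hold CCAAT 3 times and the octamer once, with TATAAA 2 times in H2BC21 and 1 time in H2AC6. The window of H2BC9, which was lower, holds CCAAT 3 times, the octamer once and no TATAAA. H4C11, also lower, holds TATAAA once and neither of the others, and H4C15, which was higher, holds none of the 3.

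Back-to-back neighbours of the members called higher were not called with them. H2AC20 shares 265 bases of its window with that of H2BC21 and had 40, 47 and 35 counts in brain, against 54 and 39 in spleen (log2 fold change -0.12, edgeR adjusted p = 0.855). The count ratio of H2BC21 to H2AC20 was 28.1, 28.2 and 24.0 in brain, against 7.83 and 9.92 in spleen, with no overlap. H2BC4 shares 255 bases of its window with that of H2AC6 and had 14, 21 and 20 counts in brain, against 27 and 41 in spleen (log2 fold change -0.80, edgeR adjusted p = 0.171). The count ratio of H2AC6 to H2BC4 was 14.8, 10.1 and 11.4 in brain, against 4.19 and 1.88 in spleen, again with no overlap. H2BC21 and H2AC6 were chosen by their calls, so these ratios rest on the same counts and give no separate support. The difference between neighbours was not tested. H2AC20 is indexed by its coding length alone, whereas H2BC4, H2AC6 and H2BC21 are long. Where 2 neighbours were both indexed as long, as with H2BC11 and H2AC11, the fold changes could also lie close together (-0.48 and -0.39).

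**Figure D5:**
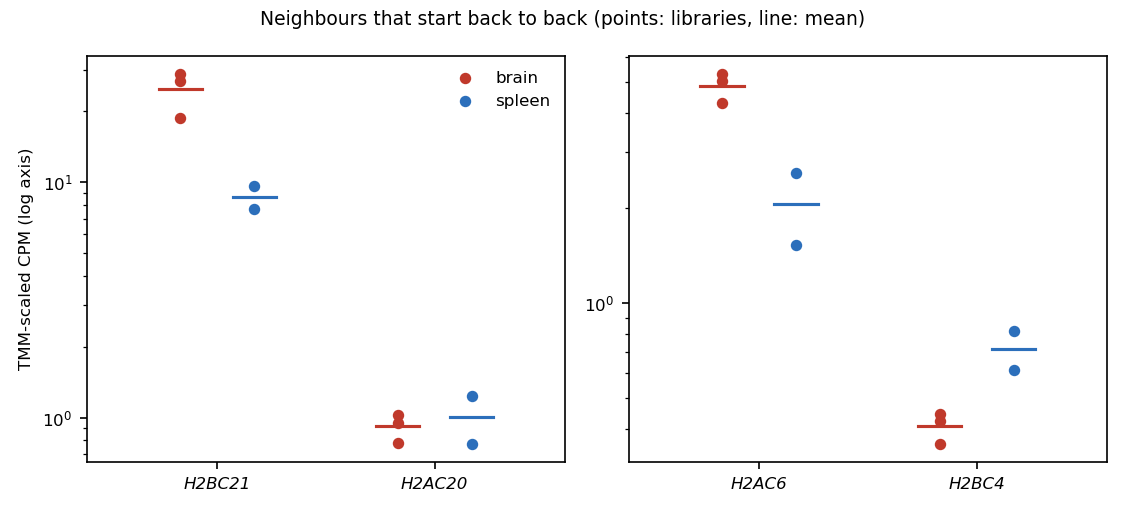
TMM-scaled CPM on a log axis for the back-to-back neighbours H2BC21 with H2AC20 and H2AC6 with H2BC4, brain libraries in red left of spleen libraries in blue, with a line at each mean. Brain points lie above spleen points for H2BC21 (log2 fold change 1.52) and H2AC6 (1.25), overlap for H2AC20 and lie below for H2BC4 (-0.80).

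Other histone genes were compared as a list. The linker histone genes of the clusters, whose H1 proteins seal the nucleosome, had 0 of 4 tested genes past the threshold in either direction. The share over all genes tested was 9.51%. The median log2 fold change of these linker histone genes was -0.48. H1-2, the linker histone with the most counts of them, had 165, 196 and 155 counts in brain, against 260 and 219 in spleen (log2 fold change -0.40, edgeR adjusted p = 0.260). H1-4 had 17, 5 and 7 counts in brain, against 17 and 14 in spleen.

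Among the replication-independent and variant histone genes, H2AX, whose phosphorylated protein marks DNA breaks and whose message carries both a stem-loop and a polyadenylated form, was lower, at 229 ± 8.78 CPM in brain and 307 ± 30.9 CPM in spleen (log2 fold change -0.42, edgeR adjusted p = 0.0369). It did not pass without brain replicate 1, 2 or 3 or without spleen replicate 1 (adjusted p from 0.0665 to 0.153). H2AZ1, the main H2A.Z gene, and H3-3B, an H3.3 gene, were not past the threshold, with log2 fold changes of -0.34 (adjusted p = 0.303) and -0.01 (0.970).

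The genes that make and remove histone message were also examined. Of 14 genes of histone transcription 0 passed in either direction, where 9.51% of all genes tested did so. NPAT, the co-activator of clustered histone genes, was at 50.001 ± 2.77 CPM in brain and 44.9 ± 5.53 CPM in spleen (log2 fold change 0.15), and its partner CASP8AP2 at 83.4 ± 10.6 CPM in brain and 77.8 ± 21.98 CPM in spleen (0.10). In this list other analyses called up to 3 genes lower, as DESeq2 did, and none higher. YY1, the gene of the list with the most counts, had a log2 fold change of 0.11.

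Of 28 genes of 3′ end processing, 1 was higher and 5 were lower, with a median log2 fold change of -0.14. The shares over all genes tested were 6.01% higher and 3.50% lower. MIF4GD, which links SLBP to translation of histone message, was at 27.3 ± 1.17 CPM in brain and 39.2 ± 1.99 CPM in spleen (log2 fold change -0.52, edgeR adjusted p = 0.0145). LSM10, a subunit specific to the U7 snRNP, was at 15.9 ± 1.67 CPM in brain and 22.6 ± 1.68 CPM in spleen (-0.50, edgeR adjusted p = 0.0400). The cleavage factor genes CSTF3 (-0.48) and CSTF2 (-0.36) and the spliceosomal Sm gene SNRPF (-0.58), whose products also serve the processing of other messages, were lower as well. ZNF473, which encodes a zinc finger protein of the U7 pathway, was the gene called higher (log2 fold change 0.38), and the list had a gene called higher in 4 of 14 alternatives. SLBP itself was at 195 ± 16.2 CPM in brain and 241 ± 20.4 CPM in spleen and did not pass (log2 fold change -0.30, edgeR adjusted p = 0.126), nor did LSM11 (0.00, 0.999). The number called lower fell to 0 without brain replicate 1 or spleen replicate 1, to 1 without brain replicate 2 and to 3 without brain replicate 3.

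Of 19 genes of histone message decay, 1 was higher and 4 were lower, with a median of -0.05. The shares over all genes tested were 6.01% higher and 3.50% lower. EXOSC4, an exosome subunit, was at 8.19 ± 0.32 CPM in brain and 14.8 ± 1.26 CPM in spleen (log2 fold change -0.86, edgeR adjusted p = 0.00603) and passed in all 14 alternatives. LSM3 (-0.65), LSM4 (-0.52) and LSM7 (-0.55), subunits of the Lsm ring that is shared with general decay and splicing, were lower. XRN1, the general 5′ to 3′ exonuclease, was the gene called higher (0.38), and the list had such a gene in 7 of 14 alternatives. ERI1, the exonuclease that trims the histone stem-loop, did not pass (-0.09, edgeR adjusted p = 0.620). Without brain replicate 1, brain replicate 2 or spleen replicate 1, 1 gene was called lower, and without brain replicate 3, 2 genes were. ZNF473, CSTF2, LSM7 and XRN1 are named here after their values were seen.

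Of 24 histone chaperone and chromatin assembly genes 0 were higher and 2 were lower, where 6.01% of all genes tested were higher and 3.50% lower. SUPT16H, a subunit of the FACT complex, was at -0.43 on the log2 scale (edgeR adjusted p = 0.0300), and IPO4, an importin that carries H3 and H4, at -0.51 (0.0428). The number called lower was 0 without brain replicate 1 or 3 and 1 without brain replicate 2 or spleen replicate 1. Of 34 genes of DNA replication and S phase 0 were higher and 8 were lower, beside the same shares of 6.01% and 3.50% over all genes. Their median log2 fold change was -0.26, against 0.01 over all genes tested. POLE2, a subunit of DNA polymerase epsilon, was at 20.5 ± 1.66 CPM in brain and 29.6 ± 0.53 CPM in spleen (-0.53, edgeR adjusted p = 0.0200). GINS2, of the replicative helicase, had -0.52 (edgeR adjusted p = 0.0288), and POLA1, of DNA polymerase alpha, had -0.42 (0.0300). The other 5 were MCM4, MCM5, CDC6, RPA1 and RRM2. Without any single brain library, or without spleen replicate 1, 0 genes of the list passed. The part of these genes in the core histone differences was not tested.

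The libraries held 38387991 to 48764202 estimated counts, and the members took 68.7 to 89.2 CPM of them in brain, against 55.1 and 63.7 CPM in spleen, before TMM scaling. Precursor B cell markers were high, with CD79A, CD79B, PAX5, DNTT, RAG1 and MME averaging at least 573 CPM in either group, and VPREB1 was listed at 0 in every library. In this list RAG1 and CD34 were called higher in brain and CD79A lower. Summed T cell and erythroid markers were under 1 CPM in every library. Myeloid markers summed to 26.9, 38.05 and 27.0 CPM in brain, against 21.1 and 16.7 CPM in spleen, mostly MPO. Astrocyte and neuron markers summed to between 9.51 and 10.1 CPM in brain, against 10.4 and 12.8 CPM in spleen, mostly SYT1 and RBFOX3, with AQP4 near 0. GFAP, the astrocyte filament gene, ran the other way, with 0.49, 0.69 and 0.73 CPM in brain, against 0.34 and 0.18 CPM in spleen (log2 fold change 1.30, edgeR adjusted p = 0.0927), and its groups did not overlap. The meningeal fibroblast markers summed to 1.67 to 2.18 CPM in brain, against 1.81 and 2.39 CPM in spleen. Mouse transcripts took 5.70%, 2.58% and 2.64% of all estimates in brain, against 6.33% and 8.87% in spleen. The part of host RNA in the histone values was not tested.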

How the data were processed

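Members and lists were chosen with earlier results of these data known. Per the submitters' processing notes, bcl2fastq 1.8.4, cutadapt 1.5, kallisto 0.42.4 and DESeq2 were used, with GRCh38 and GRCm38 as builds. No source used here gives the strand setting, so overlapping and antisense genes are uncertain. Per the file headers, the transcript tables hold estimated counts, TPM and transcript lengths. The deposited gene table holds estimated counts as whole numbers, and a further table holds the authors' log2 (rlog) values. Each gene table has 1 column of no sample here, which was not used.

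Identifiers were matched to GENCODE 44 (86.4%, holding 99.8% of counts). Counts were tested with edgeR 4.0.16 in R 4.3.3 (filterByExpr, TMM, quasi-likelihood F test with site as the only term, 3 residual degrees of freedom, Benjamini-Hochberg adjustment over 20419 genes, threshold 0.05). CPM use TMM library sizes. The test was checked on simulated counts with known changes and recovered most of them. The changes were planted in genes drawn from all those tested, so recovery at the low counts of most members was not measured. Uniqueness is the share of a gene's 31-base words found in no other human gene, over the GENCODE 44 sequences of the transcripts in the deposited tables. These sequences differ in length from the indexed ones for some genes, such as H2BC9, and mouse transcripts were not searched. Alternatives were RLE and upper-quartile scaling, 2 filters, DESeq2 1.42.0, limma 3.58.1 on the log2 values, summed transcript estimates, leaving out each library, the occasion as a block, and, added after seeing the data, merging near-identical pairs. Leaving out a spleen library leaves 1, assumed to vary like the others.

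The titles number the replicates and the labels call these numbers occasions, so libraries 1 and 2 were paired across sites for the block. Brain replicate 3 has no spleen partner and adds nothing to the site difference in the block fit. The deposited column names give the spleen libraries other numbers, 2 and 4, so this pairing is uncertain. Deviations from group means correlated across genes at -0.03 (replicate 1) and 0.15 (replicate 2), and brain replicate 3 with spleen replicate 1, which share no number, also at 0.15. Deviations of the 2 spleen libraries mirror each other and those of the 3 brain libraries sum to 0. These correlations are therefore tied to one another and cannot settle the pairing. Named members are those past the threshold, the 12 with the highest mean CPM and the 5 largest and 5 smallest log2 fold changes. Of other lists, up to 3 called genes with the smallest p (or the most abundant gene) and a fixed set are named. Sequences are from GRCh38 and from RefSeq promoters of GRCh38.p14. A result on the list of replication-independent and variant histones is not reported here.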

Additional observations from a re-analysis of the deposited data

How the results depend on the processing

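Among the members, H2BC21 passed in all 14 alternatives, and H2AC6 in 11, and no named member past the threshold reversed. The number called higher was 3, and became 5 with no filter on low counts, where H2BC18 and H4C14 joined. It ranged from 1 to 3 when single libraries were left out, with 1 without brain replicate 1. The number called lower was 2, and became 0 with summed transcript estimates, with the replicate block and with limma on the log2 values, and ranged from 0 to 2 when single libraries were left out. The cause was not tested. The median log2 fold change over members ranged from -0.3462 to 0.0346 when single libraries were left out, and was 0.0346 without spleen replicate 1. The summed level ratio of 1.30 became 0.93 in TPM and 1.04 without H2BC21, and in both cases the libraries of the sites overlapped. These ratios leave out H2AC18 and H2AC19, which are no members. The replicate block compares the sites without brain replicate 3, which has no spleen partner. With this block H2AC6, H2BC21 and H4C14 were higher, and H4C15, H4C11 and H2BC9 lost their calls. No other call changed among the members and list genes chosen by the naming rule. The cell markers and the list genes named after their values were seen were not followed gene by gene. The DNA replication genes called lower, 8 here, numbered 0 to 15 over the alternatives, those of 3′ end processing, 5 here, 0 to 8, those of decay, 4 here, 1 to 5, and chaperones, 2 here, 0 to 8. Members with few counts limit the comparison: 31 of 54 averaged under 0.5 CPM. With 3 and 2 pools, p-values measure the spread between pools and occasions.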
